A study of Mus musculus with 10 samples.

Results

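Renin leaves the kidney's renin cells under the control of receptors that sense nerves, local mediators, calcium and hormones, and 9 of these receptors were followed here through renin cells sorted from the kidneys of mice with a narrowed aorta. The 9 are Adrb1, Ptger2, Ptger4, Ptgir, Adora1, Casr, Npr1, Ednra and Pth1r, taken by gene symbol from the 32648 genes of the deposited table, where each had 1 row. The rule used gene symbols only, but the list was made with earlier results of these data known. All 9 held enough counts to be tested, among 18825 tested genes.

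Renin cells, also called juxtaglomerular cells, sit in the wall of the arteriole that feeds each glomerulus. In most secretory cells calcium triggers release, whereas in renin cells cyclic AMP raises renin synthesis and release and a rise of calcium inside the cell lowers them. Receptors coupled to Gs, such as the beta-1 adrenergic and the prostaglandin receptors, raise cyclic AMP, and receptors coupled to Gi or Gq, such as the adenosine A1, calcium-sensing and endothelin receptors, work against it.

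The cells came from Ren1c-YFP mice on the C57BL/6 strain, in which yellow fluorescent protein reports activity of the renin gene, and all 4 groups carried this reporter. The mice were 8 to 12 weeks old and were studied 72 h after surgery. In 3 mice the aorta was constricted at a level between the origins of the renal arteries, and in 2 sham mice the aorta was neither exposed nor constricted. Live YFP-positive cells, 1000 from each kidney, were sorted from the cortex, so that the groups are coarctation left, coarctation right, sham left and sham right kidneys and the kidneys of a mouse are a pair. The sort follows the same promoter that drives renin, so that a cell with little renin promoter activity can fall outside the gate. In sorted pools of this kind, fewer cells of a type and less RNA per cell cannot be told apart.

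The libraries held 20029817 to 32006229 estimated counts. The renin marker was abundant in all 10 libraries: Ren1, which encodes renin, was at 29285, 48620 and 36877 TPM (a level scaled to transcript length and to the total of the library) in the left kidneys of coarctation mice 1, 2 and 3 and at 5451, 11982 and 10836 in their right kidneys. The sham mice 1 and 2 had 30521 and 43896 in left and 21776 and 48591 in right kidneys. All marker lists of other cell types were detected in all 4 groups, with 1 marker at 0 in every library of a group (S100a9 of the leukocyte list in coarctation right kidneys). By principal components, both kidneys of sham mouse 1 lay far from the rest on the first axis (107.3 and 127.7), as did both kidneys of coarctation mouse 1 on the second (72.5 and 110.5).

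By level the receptors fell into a wide range. Averaged over the 10 libraries, Pth1r stood at 42.7 TPM and Ednra at 19.3, above 89.3% and 82.2% of tested genes. Npr1 (9.98 TPM), Adrb1 (9.62) and Adora1 (7.64) came next. The prostaglandin receptors were scarcer, with Ptgir at 2.43, Ptger2 at 1.36 and Ptger4 at 0.567 TPM, and Casr was the scarcest at 0.471 TPM, above 25.5% of tested genes. The gene with the steadiest level was Ednra, which spanned 1.75-fold from the lowest to the highest library, against 6.91-fold for Adrb1 and 114-fold for Casr.

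**Figure D1:**
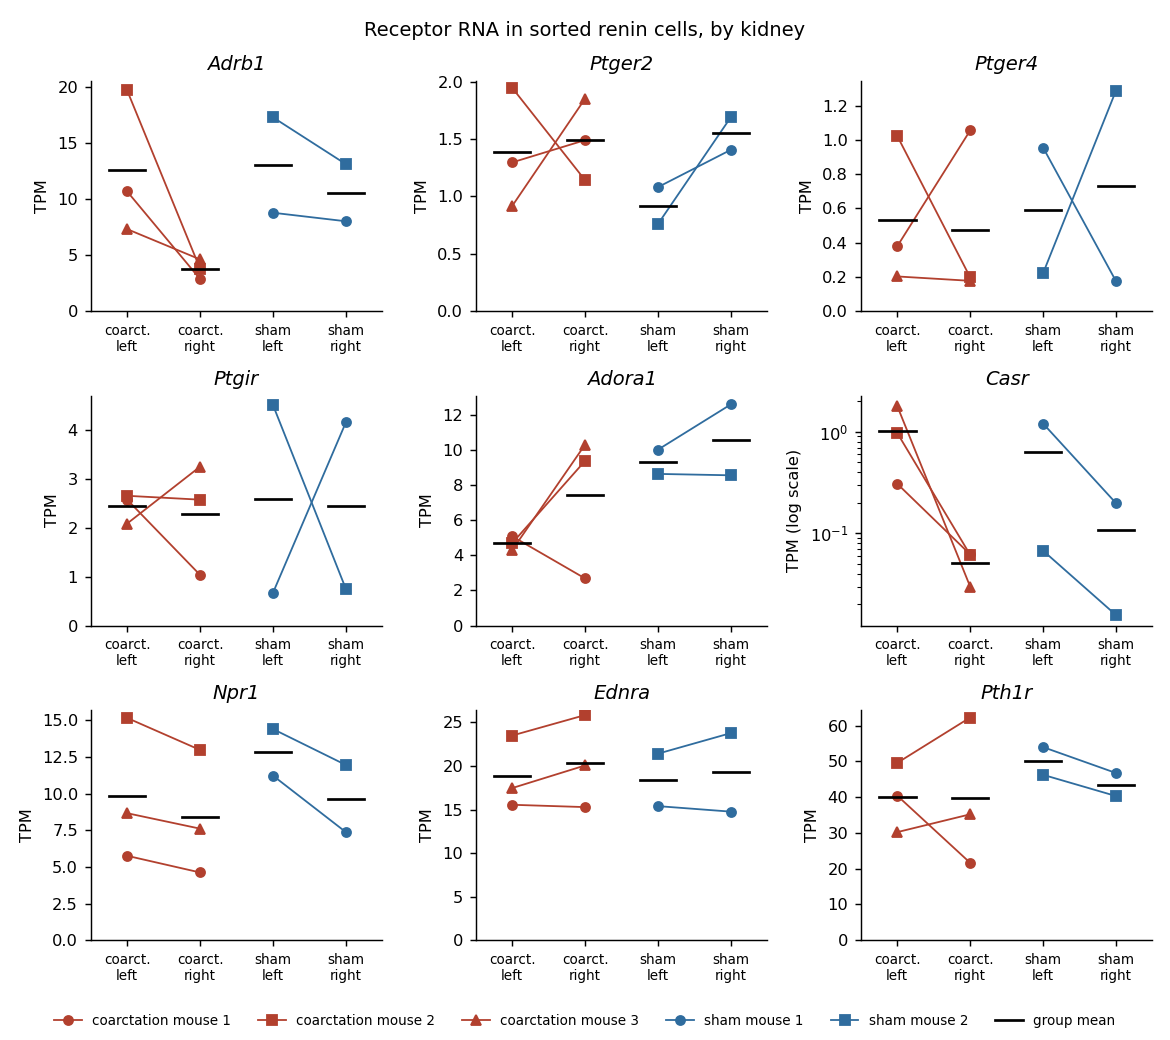
Level of each receptor in TPM (vertical axes, from 0 except Casr, which is on a log scale) in the 4 groups of kidneys. Each line joins the left and right kidney of 1 mouse and black bars are group means: the 3 coarctation right kidneys lie at 2.85 to 4.61 TPM for Adrb1, under all 7 other libraries, whereas Ednra is level across groups.

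The 2 receptors with the lowest right kidney values after coarctation, relative to the left, were Adrb1 and Casr, and the DNA just before their starts is shown because cyclic AMP acts on promoters through a short element bound by CREB. RefSeq gives a start for all 9 receptors on GRCm38.p6 (12 starts in all, as Adora1 and Pth1r have several). The 250 bases before the start of each are printed on the gene's strand, 5′ to 3′, for Adrb1 (chr19:56721867-56722116, plus strand) and Casr (chr16:36562135-36562384, minus strand). Capitals mark TGACG, the core of the cyclic AMP response element, searched on both strands (CGTCA on the other).

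Adrb1: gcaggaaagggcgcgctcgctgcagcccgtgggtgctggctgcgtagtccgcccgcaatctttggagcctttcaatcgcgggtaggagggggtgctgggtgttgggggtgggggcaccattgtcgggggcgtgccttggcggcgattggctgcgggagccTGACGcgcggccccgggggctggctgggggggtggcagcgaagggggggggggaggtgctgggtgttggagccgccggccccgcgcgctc
Casr: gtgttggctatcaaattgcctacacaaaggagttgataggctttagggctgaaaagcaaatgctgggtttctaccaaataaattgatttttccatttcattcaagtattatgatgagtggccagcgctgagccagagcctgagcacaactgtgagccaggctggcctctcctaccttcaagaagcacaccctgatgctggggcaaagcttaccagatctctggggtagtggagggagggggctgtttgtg

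The Adrb1 window held 1 core, at position -90 relative to the RefSeq start, and had 74.0% G and C. GENCODE starts the gene farther downstream, at 56722199, so the position holds for the RefSeq start only. The Casr window held none and had 48.8% G and C. Among the other receptors, 1 of the Pth1r windows held a core, at position -161, so that 2 of 9 receptors had one. Counted by window, 2 of the 12 receptor windows held a core, against 17.8% of all 32851 windows of this length. The full element TGACGTCA, which contains the core on both strands, was in no receptor window and in 1.5% of all windows. These are matches of letters, and no binding was measured.

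Adrb1 encodes the beta-1 adrenergic receptor, through which renal sympathetic nerves raise renin release. The gene (ENSMUSG00000035283, chromosome 19, 56722199 to 56733113, plus strand, GRCm38 in GENCODE vM21) was at 10.7, 19.7 and 7.32 TPM in the left kidneys of coarctation mice 1, 2 and 3 and at 2.85, 3.78 and 4.61 TPM in their right kidneys. Sham mice 1 and 2 were at 8.78 and 17.3 TPM in left and at 8.02 and 13.1 TPM in right kidneys. The 3 coarctation right kidneys were the 3 lowest libraries, and the other 3 groups overlapped.

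In order of level the groups were sham left (13.05 ± 6.03, SD, n = 2), coarctation left (12.6 ± 6.41, n = 3), sham right (10.6 ± 3.61, n = 2) and coarctation right (3.75 ± 0.879, n = 3). The first 3 of these differed by less than their spread. The values rest on 129 to 971 reads a library.

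Right against left within the coarctation mice, the log2 change of Adrb1 was -1.88 (SE 0.49, 3.68-fold lower in the right kidney, n = 3). This was lower in 3 of 3 mice, by -1.99, -2.52 and -0.89 on the log2 scale of CPM (counts scaled to the total of the library). The change did not pass at an adjusted p under 0.05 with edgeR's quasi-likelihood test (adjusted p = 0.921). With mouse as a block the change was -1.82 and the adjusted p = 0.521, and with DESeq2 it was -1.85 and passed (adjusted p = 0.0354). Over 24 alternatives the adjusted p ran from 0.032 to 1, and the sign was the same in all 24.

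In sham mice the right kidneys were slightly lower as well, by -0.21 and -0.39 (log2 change -0.34, SE 0.59, adjusted p = 1 with edgeR, n = 2). The difference between these side changes was -1.54 (SE 0.76, adjusted p = 1). Across mice, the right kidneys of coarctation mice were below those of sham mice with no overlap (log2 change -1.40, SE 0.53, 2.64-fold lower, adjusted p = 0.996). Between the left kidneys the log2 change was 0.14 (SE 0.54, adjusted p = 0.973).

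Adrb1 was set beside renin itself, since both were lowest in the same libraries. There were 365, 406 and 198 Adrb1 transcripts for each 1000000 Ren1 transcripts in coarctation left kidneys and 523, 315 and 425 in coarctation right kidneys. In sham kidneys this ratio was 288 and 394 on the left and 368 and 270 on the right. The ratio overlapped between the coarctation sides and between coarctation and sham kidneys, and within coarctation mice it was higher on the right in 2 of 3. Against the reporter, there were 25.8, 20.6 and 19.8 Adrb1 transcripts for each 1000 EYFP transcripts in coarctation left and 47.1, 21.7 and 28.1 in coarctation right kidneys, higher on the right in 3 of 3 mice, and 13.4 to 46.5 in sham kidneys. Within coarctation mice Ren1 had a log2 change of -2.20 (SE 0.36, edgeR adjusted p = 0.165, and 0.0027 with mouse as a block). EYFP, the reporter, had one of -2.28 (SE 0.67, edgeR adjusted p = 0.921, and 0.0734 with mouse as a block).

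Of 6002 genes averaging a log2 CPM of 4 or more, those whose log2 CPM followed Adrb1 most closely over the 10 libraries were Aldh7a1, an aldehyde dehydrogenase (Pearson r = 0.977), Slco2a1, the prostaglandin transporter (0.944), and Gpi1, a glycolytic enzyme (0.943). These libraries share mice in pairs, so that the r is a description. Aldh7a1 was at 324, 670 and 229 TPM in coarctation left kidneys and at 49.5, 116 and 95.7 TPM in coarctation right kidneys. In sham kidneys Aldh7a1 was at 281 and 514 TPM on the left and 242 and 485 TPM on the right, and its 3 lowest libraries were the coarctation right kidneys, like those of Adrb1.

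**Figure D2:**
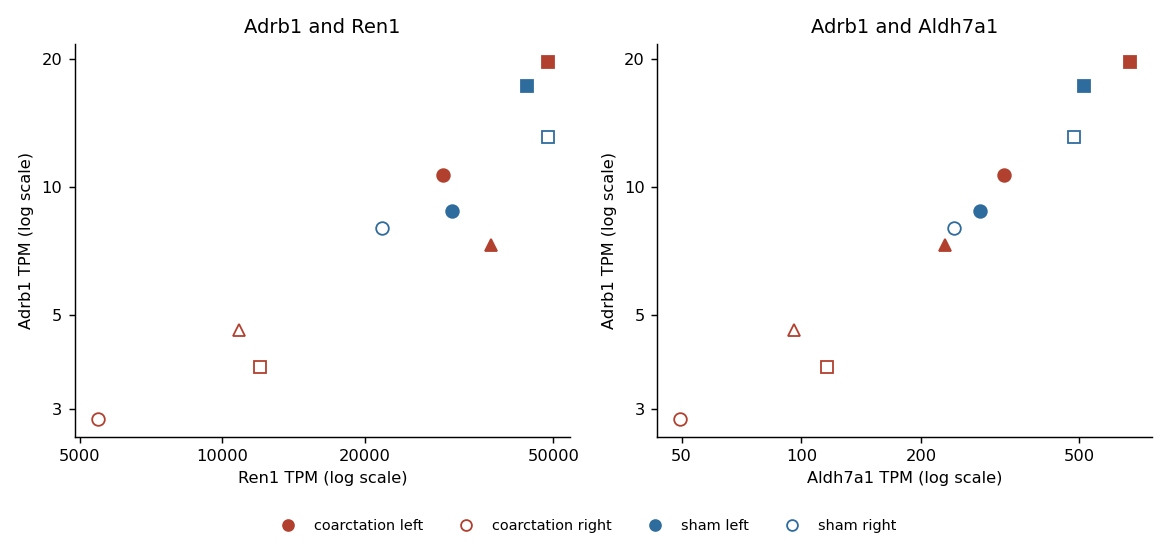
Adrb1 TPM (vertical axis, log scale) against Ren1 TPM and against Aldh7a1 TPM (horizontal axes, log scale), 1 point per library, with circles, squares and triangles for mice 1, 2 and 3 and open symbols for right kidneys. The 3 coarctation right kidneys are lowest on both axes of both plots, with Ren1 at 5451 to 11982 TPM and Aldh7a1 at 49.5 to 116 TPM.

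Markers of other cells also differed between the coarctation kidneys. The summed TPM of 6 intercalated cell markers (led by Atp6v1g3) was 10.4 to 73.1 in coarctation left and 85.3 to 727 in coarctation right kidneys, against 73.9 to 146 in sham kidneys, and 6 of 6 markers were higher on the right. The 3 intercalated sums on the right lay above all 3 on the left. The summed TPM of 10 leukocyte markers (led by Cd74) was 67.9 to 416 in coarctation left and 315 to 948 in coarctation right kidneys, with 8 of 10 higher. In sham kidneys the leukocyte sum was 125 to 445. For 6 podocyte markers (led by Synpo) the sum was 28.8 to 51.3 on the left and 25.5 to 31.6 on the right, with 6 of 6 lower, and 40.9 to 51.1 in sham kidneys. Fibroblast and mesangium markers (led by Serpine2) summed to 612 to 926 on the left and 1079 to 1434 on the right. Endothelial markers (led by Emcn) summed to 64.6 to 92.8 and 94.0 to 108, and neither sum overlapped between the coarctation sides. In sham kidneys the fibroblast and mesangium sum was 559 to 1685 and the endothelial sum 77.8 to 101. These ranges overlapped those of both coarctation sides. After coarctation, Serpine2 alone was at 601 to 912 TPM on the left and 1024 to 1423 on the right, and Emcn at 57.3 to 82.2 and 83.4 to 100. By fitted value 4 of 5 tested fibroblast and mesangium markers were higher on the right. Of 8 endothelial markers 3 were higher and 5 lower (median log2 change -0.11). The sum of 10 proximal tubule markers (led by Kap) was 1817, 1576 and 10453 on the left and 2121, 3060 and 4833 on the right. This sum was higher on the right in 2 of 3 mice, and in sham kidneys it was 927 to 5630. By fitted value, however, 1 of the 10 markers was higher and 9 were lower on the right (median log2 change -0.50). With mouse as a block 4 were higher and 6 lower. The part of these cells in the Adrb1 result was not tested.

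Casr encodes the calcium-sensing receptor, which lowers renin release when extracellular calcium rises and is abundant in the thick ascending limb of the nephron. The gene (ENSMUSG00000051980, chromosome 16, 36493696 to 36562141, minus strand) was at 0.308, 0.973 and 1.79 TPM in coarctation left kidneys and at 0.0621, 0.0615 and 0.0299 TPM in coarctation right kidneys. In sham kidneys Casr was at 1.21 and 0.0676 TPM on the left and 0.198 and 0.0157 TPM on the right. The left kidney was higher in each of the 5 mice, and the coarctation kidneys did not overlap, but the left kidney of sham mouse 2 lay only just above the coarctation right kidneys.

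Few reads lie behind these levels: 37, 56 and 28 in coarctation left kidneys, 7, 8 and 3 in coarctation right kidneys, 111 and 9 in sham left kidneys, and 19 and 2 in sham right kidneys. The log2 change in coarctation mice was -4.45 (SE 1.28, n = 3, edgeR adjusted p = 0.921, and 0.495 with mouse as a block). DESeq2 gave -4.44 and passed (adjusted p = 0.0202), and edgeR without the filter on low counts gave -4.47 and passed (adjusted p = 0.0499). On the reads themselves, with no length term, the change was smaller and did not pass: -2.94 with DESeq2 (adjusted p = 0.379) and -2.82 with edgeR (adjusted p = 1). Over 24 alternatives the adjusted p of Casr ran from 0.0202 to 1. In sham mice the log2 change was -2.57 (SE 1.44, adjusted p = 1, n = 2), and the difference between the side changes was -1.88 (SE 1.79, adjusted p = 1). Without the left kidney of sham mouse 1 the sham change was 0.50.

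The Casr level also depends on which transcript the reads were assigned to. The deposited average transcript length of Casr was 425 bases in the left kidney of coarctation mouse 3 and 1554 in that of coarctation mouse 2, against a median of 3060 over the libraries. The longest was 8.37 times the shortest, where the median ratio over all 18825 tested genes was 1.29, the 90th percentile was 4.10 and 2.66% of genes had a larger one. GENCODE lists 3 protein-coding Casr transcripts of 3659 to 4534 bases and 1 noncoding transcript of 400 bases. TPM divides by this length, so the 28 reads of mouse 3 gave a higher TPM than the 56 reads of mouse 2 and the 111 reads of sham mouse 1.

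Casr was also set beside 6 thick ascending limb markers. Their summed TPM was 310, 66.1 and 148 in coarctation left kidneys and 159, 134 and 76.1 in coarctation right kidneys, and 462 and 24.5 in sham left and 122 and 43.2 in sham right kidneys. Within these, Cldn16, a claudin of that segment, was at 9.36, 7.09 and 1.97 TPM in coarctation left kidneys, at 1.67, 2.03 and 0.877 in coarctation right kidneys, at 18.0 and 0 in sham left kidneys and at 0.335 and 1.21 in sham right kidneys. The library with the most Casr reads, sham left 1, had the highest level of both Cldn16 and the summed markers, and 6 of 6 markers were lower in coarctation right than left kidneys, none of them past the test. The part of thick ascending limb RNA in the Casr result was not tested.

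**Figure D3:**
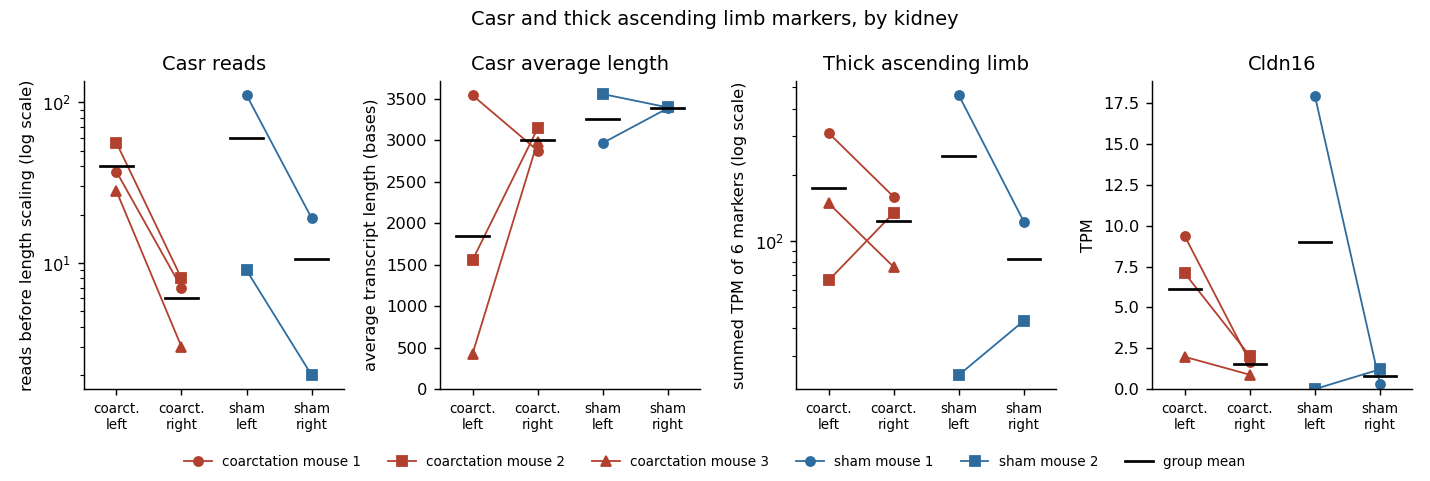
Casr reads (log scale), Casr average transcript length in bases, summed TPM of 6 thick ascending limb markers (log scale) and Cldn16 TPM in the 4 groups, with lines joining the kidneys of 1 mouse and black bars for group means. Casr reads are 28 to 56 on the left and 3 to 8 on the right after coarctation, the length is short in 2 of the 3 coarctation left kidneys, and sham mouse 1 is highest on the left for reads and both marker plots.

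The receptors for prostaglandins raise cyclic AMP in renin cells: Ptger2 and Ptger4 encode the EP2 and EP4 receptors for prostaglandin E2, and Ptgir the prostacyclin receptor. Ptger2 (chromosome 14, 44988195 to 45003820, plus strand) was at 1.30, 1.95 and 0.916 TPM in coarctation left and 1.49, 1.14 and 1.85 TPM in coarctation right kidneys, and at 1.08 and 0.759 TPM in sham left and 1.41 and 1.69 TPM in sham right kidneys. The coarctation sides overlapped (log2 change -0.01, SE 0.57, edgeR adjusted p = 1), with the right kidney higher in 2 of 3 mice. The left kidneys of sham mice were the lowest of the 4 groups by mean (0.920 ± 0.227, n = 2), but coarctation minus sham on the left was 0.84 (SE 0.65, adjusted p = 0.912).

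Ptger4 (chromosome 15, 5206661 to 5244187, minus strand) was at 0.378, 1.02 and 0.202 TPM in coarctation left and 1.06, 0.196 and 0.176 TPM in coarctation right kidneys, and at 0.955 and 0.221 TPM in sham left and 0.174 and 1.29 TPM in sham right kidneys. In each group 1 library was at 0.955 TPM or above and all others were at 0.378 or below, so the high libraries came from different mice and from both sides. The within-mouse changes of 1.32, -2.38 and -0.36 after coarctation and -2.41 and 2.39 in sham mice had no common direction (log2 change after coarctation -0.14, SE 1.11, adjusted p = 1).

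Ptgir (chromosome 7, 16906490 to 16910905, plus strand) was at 2.58, 2.66 and 2.09 TPM in coarctation left and 1.04, 2.58 and 3.25 TPM in coarctation right kidneys, and at 0.670 and 4.52 TPM in sham left and 4.16 and 0.750 TPM in sham right kidneys. The sham left kidneys held the highest and the lowest of all 10 values, and the right kidney was the higher of the pair in sham mouse 1 and the lower in sham mouse 2. After coarctation the log2 change was -0.29 (SE 0.77, adjusted p = 1). For Ptger4 and Ptgir all 4 group means differed by less than the spread within groups. For Ptger2 the order was sham right (1.55 ± 0.202), coarctation right (1.49 ± 0.356), coarctation left (1.39 ± 0.521) and sham left, and of these neighbours none differed beyond their spread.

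Adora1 encodes the adenosine A1 receptor, which carries the inhibition of renin release by adenosine from the macula densa. The gene (chromosome 1, 134199223 to 134235431, minus strand) was at 5.09, 4.70 and 4.31 TPM in coarctation left and 2.68, 9.40 and 10.3 TPM in coarctation right kidneys. In sham kidneys it was at 10.0 and 8.65 TPM on the left and 12.6 and 8.57 TPM on the right. The 3 coarctation left kidneys, at 4.70 ± 0.393 (SD, n = 3), were below all 4 sham kidneys, and coarctation right 1 was lower still.

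In order, Adora1 averaged 10.6 ± 2.86 TPM in sham right, 9.34 ± 0.979 in sham left, 7.47 ± 4.17 in coarctation right and 4.70 in coarctation left kidneys, and neighbours in this order did not differ beyond their spread. In the main fit it was the only receptor with a higher right than left value after coarctation (log2 change 0.44, SE 0.40, edgeR adjusted p = 1). Of the 3 mice, 2 were higher by 0.84 and 1.03 and mouse 1 was lower by -1.01. Coarctation minus sham was -0.72 in left kidneys (SE 0.44, adjusted p = 0.912) and -0.41 in right kidneys (SE 0.44, adjusted p = 0.996), neither of which passed.

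Npr1 encodes the guanylyl cyclase receptor for atrial and brain natriuretic peptides, which makes cyclic GMP and lowers renin release. The gene (chromosome 3, 90450591 to 90465866, minus strand) was at 5.76, 15.2 and 8.67 TPM in coarctation left and 4.62, 12.99 and 7.61 TPM in coarctation right kidneys. In sham kidneys it was at 11.2 and 14.4 TPM on the left and 7.38 and 12.0 TPM on the right. Group means ran from 8.41 ± 4.24 TPM (coarctation right) to 12.8 ± 2.25 TPM (sham left), within the spread. Mice differed more than sides: the groups overlapped, but by TPM the right kidney was the lower of the pair in all 5 mice.

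Within mice 1, 2 and 3 of the coarctation group the Npr1 difference was -0.41, -0.38 and -0.42, and in the sham mice it was -0.69 and -0.26. The log2 change was -0.40 (SE 0.42) after coarctation and -0.43 (SE 0.51) in sham mice, both with an edgeR adjusted p = 1, and -0.40 (SE 0.27, adjusted p = 0.868) with mouse as a block after coarctation. Its average transcript length ran from 1772 bases (sham right 1) to 3180 bases (coarctation right 3). Egr1, an immediate early transcription factor, followed Npr1 most closely over the libraries (r = 0.931, of 6001 genes).

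Ednra encodes the endothelin A receptor, a Gq-coupled receptor of smooth muscle and of renin cells. The gene (chromosome 8, 77663031 to 77724464, minus strand) was at 15.5, 23.5 and 17.5 TPM in coarctation left and 15.3, 25.8 and 20.1 TPM in coarctation right kidneys, and at 15.4 and 21.4 TPM in sham left and 14.8 and 23.8 TPM in sham right kidneys. Group means ran only from 18.4 ± 4.26 TPM (sham left) to 20.4 ± 5.29 TPM (coarctation right). Each mouse kept its place: mouse 2 was the highest and mouse 1 the lowest on each side of each surgery. The log2 change after coarctation was -0.05 (SE 0.31, edgeR adjusted p = 1). Its sign depends on the scale, as 2 of 3 mice were higher on the right by TPM and 3 of 3 were lower by CPM (-0.12, -0.02 and -0.03). Btg2, an antiproliferative immediate early gene, was among the genes closest to Ednra (r = 0.981).

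Pth1r encodes the receptor for parathyroid hormone and its related protein, which raises cyclic AMP and renin release. The gene (chromosome 9, 110722085 to 110747145, minus strand) was at 40.4, 49.6 and 30.2 TPM in coarctation left and 21.6, 62.3 and 35.2 TPM in coarctation right kidneys, and at 54.0 and 46.3 TPM in sham left and 46.8 and 40.3 TPM in sham right kidneys. It was the most abundant of the 9 receptors in every library, and the lowest value was that of coarctation right 1. Group means ran from 39.7 ± 20.7 TPM (coarctation right) to 50.1 ± 5.48 TPM (sham left), within the spread. The log2 change was -0.22 (SE 0.32, adjusted p = 1 with edgeR) after coarctation, where mouse 1 was lower by -0.996 and mice 2 and 3 differed by 0.18 and -0.01.

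**Figure D4:**
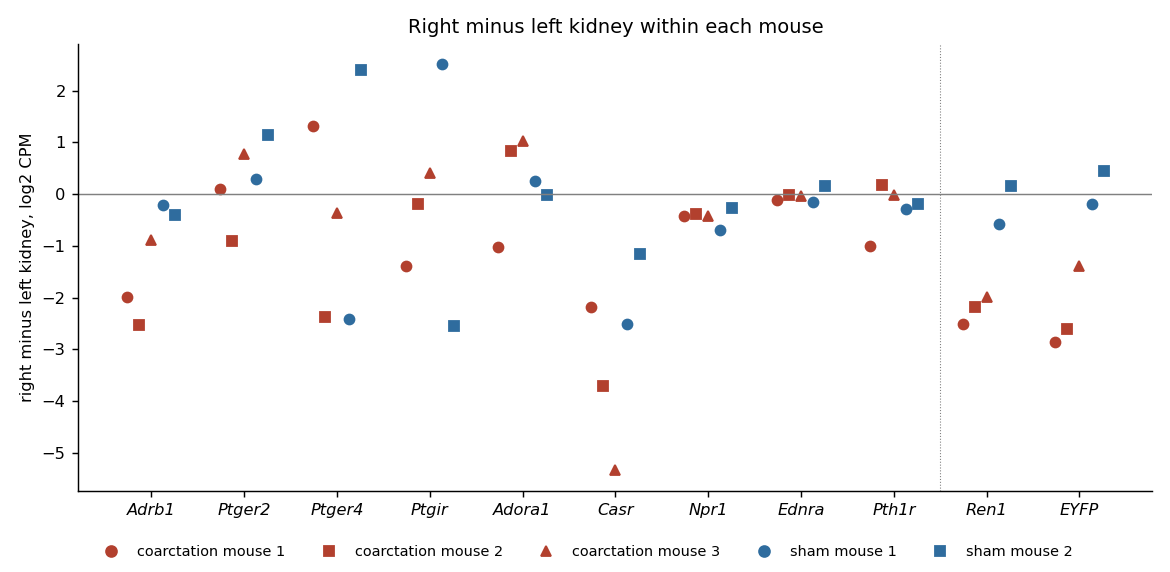
Right minus left kidney in log2 CPM (vertical axis) for each receptor, for Ren1 and for the EYFP reporter, 1 point per mouse (red, coarctation; blue, sham). Adrb1, Casr and Npr1 are below 0 in 5 of 5 mice, and Ptger4 and Ptgir scatter to both sides. Ren1 is lower in the 3 coarctation mice (-2.00 to -2.52) than in the sham mice.

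For 4 of the other receptors, the gene closest in pattern over the 10 libraries was Ptpn2, a tyrosine phosphatase, for Ptger2 (r = 0.932), Usp20, a deubiquitinase, for Ptgir (0.915), Acly, ATP citrate lyase, for Pth1r (0.910) and Tnk2, a tyrosine kinase, for Adora1 (0.905). Casr had too few counts for this comparison.

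Counted over the 9 receptors, 8 had a lower and 1 a higher fitted value in the right than in the left kidney after coarctation. Of all 18825 tested genes, 9101 were lower and 9715 higher. The median log2 change was -0.22 for the receptors and 0.02 for all tested genes. Of the 8, Ptger2 (-0.01) and Ednra (-0.05) changed little. On reads with a length offset Ptger2 (0.13), Ptger4 (0.02) and Ednra (0.08) were higher too, where the median of all genes was 0.16. None passed at an adjusted p under 0.05 with edgeR (0 of 9, where 0% of all genes passed), and 2 of 9 (Adrb1 and Casr) were at an unadjusted p under 0.05, as were 4.63% of all genes. DESeq2 passed the same 2 of 9 (Casr only with a length term), where it passed 0.472% of all genes, and edgeR without the low-count filter passed 1 of 9 (Casr), where it passed 0.357%. With mouse as a block edgeR passed 0 of 9 and 0.0266% of all genes.

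In the other comparisons edgeR passed 0 of 9 receptors as well, as it passed 0% of genes in sham right minus left, in the difference of the side changes and in coarctation minus sham on either side, and with mouse as a block 0% in the 2 of these that allow it. At an unadjusted p under 0.05 were 0 of 9 receptors in sham right minus left (1.94% of genes), 0 of 9 in the difference of the side changes (3.05%), 0 of 9 in left kidneys (4.75%) and 1 of 9, Adrb1, in right kidneys (3.82%). With DESeq2, 0 of 9 passed in each of these 4 comparisons.

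Direction within pairs can be counted without a test. Lower in the right kidney of all 5 mice by log2 CPM were 3 of 9 receptors (Adrb1, Casr and Npr1), against 3.62% of all tested genes. For Npr1 this depended on transcript length: by reads with no length correction it was higher on the right in coarctation mouse 3 and sham mouse 2. Lower in all 3 coarctation mice by log2 CPM were 4 of 9 (Adrb1, Casr, Npr1 and Ednra), against 13.5%. Higher in all 3 were 0 of 9, against 14.5%. With every coarctation right kidney below every coarctation left kidney there were 2 of 9 (Adrb1 and Casr), against 5.39%, and with every coarctation right kidney below every sham right kidney 1 of 9 (Adrb1), against 9.18%. For other orders of libraries given here, such as that of Adora1 in coarctation left and sham kidneys, no share over all genes was counted. The receptors were chosen with earlier results of these data known, so that these counts are a description.

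Genes around the receptors were taken from 5 lists by function. Of 22 other receptors of the same families, 21 were tested and 0 passed in any comparison of the main edgeR fit. Their median log2 change after coarctation was -0.18, with 7 of 21 higher on the right and 14 lower. Npr3, the clearance receptor that removes natriuretic peptides, was at 6.43, 5.57 and 3.09 TPM in coarctation left and 1.02, 1.41 and 1.15 TPM in coarctation right kidneys, and at 3.57 and 5.26 TPM in sham left and 2.79 and 5.19 TPM in sham right kidneys. Its 3 lowest libraries were the coarctation right kidneys, as for Adrb1 (log2 change -2.25, SE 0.42, 4.77-fold lower, adjusted p = 0.285, and 0.117 with mouse as a block). DESeq2 passed it with an adjusted p = 5.6e-04, and over 24 alternatives the adjusted p ran from 2.3e-04 to 1. Ptgfr, the receptor for prostaglandin F2 alpha, was at 5.14, 0.773 and 0.480 TPM in coarctation left and 11.6, 3.25 and 3.11 TPM in coarctation right kidneys (log2 change 1.34, SE 0.86, adjusted p = 1). Its direction in mouse 2 depends on transcript length, as that mouse had 211 reads on the left and 114 on the right, and on reads with no length term the log2 change was 0.49.

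Among 20 tested receptors of other ligands 14 were higher and 6 lower (median 0.30), and 0 passed in the main edgeR fit. Insr, the insulin receptor, was at 8.53, 8.60 and 7.59 TPM in coarctation left and 4.90, 5.12 and 4.12 TPM in coarctation right kidneys, and at 9.20 and 7.34 TPM in sham left and 4.79 and 5.20 TPM in sham right kidneys. All 5 right kidneys were below all 5 left kidneys (log2 change after coarctation -0.96, SE 0.28, adjusted p = 0.921 with edgeR). Over 24 alternatives the lowest adjusted p of Insr was 0.0499. Avpr1a, a vasopressin receptor, had 19, 8 and 0 reads in coarctation left and 167, 3 and 73 in coarctation right kidneys (log2 change 3.01, SE 1.45, adjusted p = 1).

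Of 23 tested G proteins, receptor kinases, arrestins and RGS proteins, 14 were higher and 9 lower (median 0.08), and 0 passed. Gng11, a G protein gamma subunit, was very abundant, at 3371 to 4307 TPM in coarctation left, 2788 to 2847 in coarctation right and 4652 to 5437 in sham kidneys (log2 change -0.59, SE 0.23, adjusted p = 1 with edgeR, and 0.135 with mouse as a block). Arrb1, beta-arrestin 1, was at 0.381 to 1.06 TPM in coarctation left and 1.16 to 1.68 TPM in coarctation right kidneys (log2 change 0.96, SE 0.49, adjusted p = 1), and at 1.48 to 3.19 TPM in sham kidneys, so that the coarctation left kidneys were the 3 lowest libraries.

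Of 18 tested genes for adenylyl and guanylyl cyclases and the kinases of cyclic nucleotides, 8 were higher and 10 lower (median -0.02), and 0 passed. Adcy3 had a log2 change of -0.90 (SE 0.54) and Adcy6, a calcium-inhibited adenylyl cyclase, of 0.50 (SE 0.32), both with an adjusted p = 1. Adcy6 was at 7.13 to 11.2 TPM in coarctation left and 8.10 to 21.6 TPM in coarctation right kidneys, which overlapped.

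Of 20 tested makers and breakers of the ligands 13 were higher and 7 lower (median 0.20), and 0 passed with edgeR. Edn3, which encodes the peptide endothelin 3, had 3, 17 and 0 reads in coarctation left and 55, 207 and 193 in coarctation right kidneys, and 14 and 8 in sham left and 9 and 3 in sham right kidneys. The coarctation right kidneys were above all other libraries (log2 change 4.76, SE 1.25, adjusted p = 0.921, with DESeq2 adjusted p = 0.0014). Mme, neprilysin, which degrades natriuretic peptides and endothelins, was at 0.288 to 1.14 TPM in coarctation left and at 16.01, 0.360 and 3.60 TPM in coarctation right kidneys, so that its value rests mainly on mouse 1 (log2 change 3.08, SE 1.10, adjusted p = 1, and 1.22 without that right kidney). Without the low-count filter edgeR passed it (adjusted p = 3.9e-05), and over 24 alternatives its adjusted p ran from there to 1. Several marker sums were highest in the same right kidney of mouse 1: intercalated cell (727 summed TPM), leukocyte (948), distal tubule (485) and endothelial (108). The proximal tubule (2121) and podocyte (25.8) sums were not highest there. The part of any of these cells in these results was not tested.

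**Figure D5:**
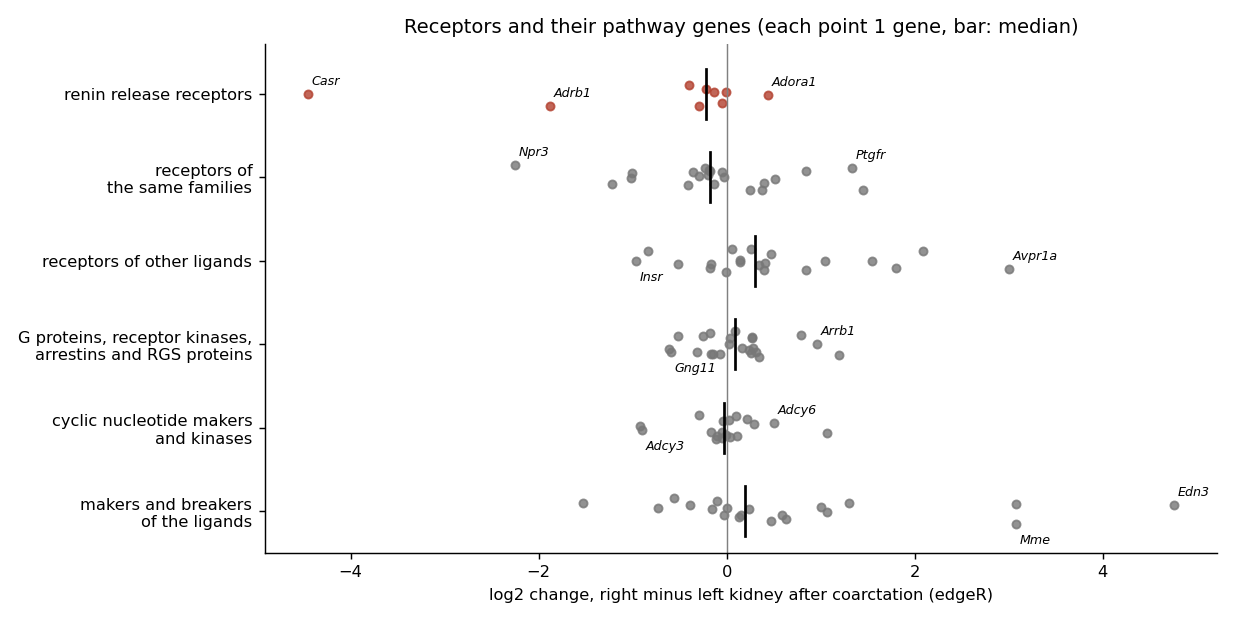
Log2 change of right minus left kidney after coarctation (horizontal axis, edgeR) for the 9 receptors and for the tested genes of 5 lists, 1 point per gene, with black bars at the medians. The receptor median is -0.22, Casr (-4.45) and Adrb1 (-1.88) are farthest to the left of their row, and Npr3 (-2.25) is farthest to the left of its own.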

How the data were processed

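RNA-seq was made with SMART-Seq v4 from sorted cells, per the labels' protocols. The deposited table gives TPM, estimated counts and average transcript length per gene, per the file headers, and the estimated counts are TPM scaled by length and library size, as a column of the deposited table states. The submitters' processing notes name FastQC and GRCm38 (mm10), and for the aligner, the quantifier and the annotation a name is not given in the sources used here. The length values, in bases, are other deposited values per the file headers. TPM × length scaled to the library total gave whole reads for 78 of 90 receptor values (within 0.02 of a whole number), and these are the reads printed.

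Estimated counts were rounded, filtered with filterByExpr (18825 genes) and TMM-scaled, and fitted in edgeR 4.0.16 (R 4.3.3) as 4 groups over 10 libraries (6 residual degrees of freedom) with quasi-likelihood tests of 5 comparisons, Benjamini-Hochberg adjusted over all genes (threshold 0.05). This fit takes the kidneys of a mouse as independent. The block fit adds a term per mouse, since the labels give both kidneys the same mouse; left and right deviations correlated at 0.127, 0.05 and 0.031 in coarctation mice and 0.398 in sham mice. DESeq2 1.42.0, limma 3.58.1 and the other alternatives are in the closing section. The labels' design text calls the mice biological replicates. Reads carry no molecular identifiers, so read counts are not counts of molecules and do not give the counting error of molecules. Log2 CPM used a prior count of 2.

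Receptors and gene lists were chosen with earlier results of these data known. Named genes were the 9 receptors, Ren1 and EYFP, the 2 genes of each pathway list with the smallest p after coarctation, the most abundant gene of each marker list, and the genes most like a receptor, of which 1 is not reported here. Cldn16, S100a9 and single libraries singled out were chosen after their values were seen. Each marker list was examined: podocyte, endothelial, fibroblast and mesangial, distal tubule and red cell lists gave summed TPM of 25.5 to 51.3, 64.6 to 108, 559 to 1685, 71.2 to 485 and 152 to 15981 over the libraries, and the 12 renin cell and mural markers 9261 to 63803.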

Additional observations from a re-analysis of the deposited data

Results flagged for a closer look

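Among the named genes, Ptgfr and Edn3 differed in direction between the 2 surgeries by CPM: the right kidney was higher than the left in all 3 coarctation mice and lower in both sham mice. The difference between the side changes was 2.15 for Ptgfr (SE 1.35) and 5.29 for Edn3 (SE 1.84) on the log2 scale, each with an edgeR adjusted p = 1. Opposite directions of this kind were found in 6.45% of all 18825 tested genes and in 9 of the 102 tested genes of the 5 pathway lists. By reads with no length correction, Ptgfr in coarctation mouse 2 was lower on the right (114 against 211 reads). None of the 9 receptors showed such opposite directions. Groups of 2 and 3 kidneys were too small to look for single outlying libraries.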

How the results depend on the processing

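No receptor passed edgeR in the main fits, and the number of genes past the threshold depended on the tool. For coarctation right minus left it was 0 of all genes in the main fit (871 at an unadjusted p under 0.05), 76 with DESeq2 (73 on reads before length scaling with length factors, 71 with no length term), 112 without the low-count filter, 5 with the replicate block by mouse and 0 to 3 with 1 library left out. DESeq2 called 2 of the 9 receptors on counts and on reads with length factors and 1, Adrb1, on reads with no length term, and the fit without the filter called 1. For sham right minus left the counts were 28 with DESeq2 (27 and 9 on these 2 forms of the reads), 19 without the filter and 2 with limma on log2(TPM + 1). For the difference of the side changes they were 34 (35 and 31) and 63 without the filter. For left kidneys they were 39 (41 and 19), 67 without the filter and 3 with limma on log2(TPM + 1). For right kidneys they were 57 (53 and 48), 70 without the filter and 0 to 3 with 1 library left out. The block by mouse cannot be fitted to coarctation against sham, since each mouse had 1 surgery, and beyond the 5 genes it changed no call of a receptor or count of genes.

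With DESeq2 on reads, the adjusted p of Adrb1 was 0.0363 with length factors and 0.032 with no length term, and that of Casr was 0.0322 and 0.379. On log2(TPM + 1), Casr after coarctation was -0.88, where 1 is added to levels that average 0.471 TPM. The sign of small changes after coarctation turned: Ptger2 was 0.02 with RLE size factors and with DESeq2 on each input, 0.08 on log2(TPM + 1), 0 with only the groups compared, 0.13 on reads with a length offset, 0.11 with no length term and from -0.16 to 0.34 with 1 library left out. Ptger4 was 0.02 with the length offset and -1.63 to 0.72 with 1 library left out. Ednra was 0.10 on log2(TPM + 1), 0.08 on reads with or without the length offset and -0.16 to 0.18 with 1 library left out. Leaving out 1 library gave -0.74 to 0.08 for Npr1, -0.58 to 0.13 for Pth1r and -0.65 to 0.11 for Ptgir. Without either kidney of coarctation mouse 1, Ptgir was 0.12 and Pth1r 0.10. Adrb1 in sham mice was -0.91 to 0.34 and Casr -4.84 to 0.50 with 1 library left out. The Casr difference of side changes was -4.95 to 0.39. Adrb1 in left kidneys was -0.08 on log2(TPM + 1), -0.31 without either kidney of sham mouse 1 and -0.31 to 0.83 with 1 library left out. The length offset moved the median of all genes after coarctation to 0.16. The order of the 4 groups was the same by TPM and CPM for 3 of the 9 receptors (Adora1, Casr and Npr1). Alternatives on reads before length scaling and without a mouse were chosen after seeing the data. Where a sham library was left out, the lone sham kidney of that side is assumed to vary like the other groups.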
